A study of Homo sapiens with 22 samples.

Results

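CTCF, Jun, H3K27ac and Rad21 occupancy was followed around 3 genes, SP2, SPATC1L and DSTYK, at which binding of CTCF (SP2 and SPATC1L) or Jun (DSTYK) was much lower after 72 h of phorbol 12-myristate 13-acetate (PMA) than before it. The members are all regions of the 4 deposited region tables that overlap a gene's RefSeq span extended by 50 kb on either side, 183 regions of 409446 in all. SP2 had 65 member regions, SPATC1L 44 and DSTYK 74, in windows of 135.5, 123.3 and 169.2 kb. By antibody there were 51 H3K27ac, 61 Jun, 29 CTCF and 42 Rad21 regions, and 180 of the 183 passed the filter on low counts (27 CTCF regions and 41 Rad21 regions, with all H3K27ac and Jun regions). The genes were picked on the measured fall itself, so CTCF values at SP2 and SPATC1L and Jun values at DSTYK are given as descriptions, without a test.

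The cells were K562, a human erythroleukaemia line of wild-type genotype, given 25 nM PMA, a protein kinase C activator that drives these cells towards megakaryocyte features. The libraries carry the prefix CNR, and the cells were fixed in 1% formaldehyde for 10 min before antibody profiling. Libraries were made for H3K27ac, CTCF and Jun before PMA (0 h) and after 6 h and 72 h of it, and for Rad21 before it and after 72 h, with 2 libraries in each of the 11 groups (22 libraries). The line carries no transgene in the labels, the 0 h libraries were the only untreated controls, and the 6 h and 72 h comparisons shared them. The labels do not say whether the 2 libraries of a group came from separate cultures, so p-values measure only the spread between these libraries. A change in the share of cells with a bound site and a change in occupancy per cell cannot be told apart in bulk libraries.

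CTCF is a zinc-finger protein that binds a long GC-rich motif and halts cohesin, the ring complex of which Rad21 is a subunit, so that both are often found at the anchors of chromatin loops. Jun is a subunit of AP-1, a leucine-zipper factor induced by phorbol esters that binds enhancers, and H3K27ac is an acetylation of histone H3 found at active enhancers and promoters. SP2 encodes a zinc-finger transcription factor of the Sp family, SPATC1L a protein related to the centriole-associated protein SPATC1, and DSTYK a kinase of serine, threonine and tyrosine residues.

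Total counts over the regions ranged from 12634261 to 27266241 for H3K27ac, 4766421 to 18883962 for Jun, 2553677 to 6068421 for CTCF and 4398797 to 7285286 for Rad21. The mitochondrial share of the counts was 24.0% and 27.7% in the 0 h Jun libraries against 9.07% and 8.58% at 72 h, and 17.8% and 22.1% in the 0 h CTCF libraries against 9.55% and 9.63% at 72 h. With a scaling that leaves these counts out, the 6 h and 72 h Jun calls at the starts of SP2 and SPATC1L were the same. Values per library are counts scaled to the TMM-adjusted library size (CPM). As a check of the line, the erythroid genes GATA1, KLF1, HBG1 and EPOR had an H3K27ac peak in both 0 h libraries. Among genes of other cell types, CD3E, ALB, CDH5 and COL1A1 had none.

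The CTCF regions with the fall cover the start of SP2 and the start of SPATC1L, and the bases before each start are shown because the 0 h summits of CTCF and Rad21 and the strongest 0 h Jun summits all lay on them. Both are from RefSeq, build GRCh38.p14, written 5′ to 3′ in the direction of the gene. The SP2 stretch is chr17:47895986-47896235, plus strand, with the letters of the CCAAT box (ATTGG or its reverse complement CCAAT) and of the GC box (GGGCGG) in capitals. The SPATC1L stretch is chr21:46184460-46184709, minus strand, with every other copy of a repeated unit in capitals.
SP2: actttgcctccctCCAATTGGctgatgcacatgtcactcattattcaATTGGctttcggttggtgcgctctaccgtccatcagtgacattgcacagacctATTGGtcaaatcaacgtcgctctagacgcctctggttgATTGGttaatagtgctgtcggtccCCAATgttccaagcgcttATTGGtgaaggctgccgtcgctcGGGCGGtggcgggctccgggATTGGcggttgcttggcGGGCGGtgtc
SPATC1L: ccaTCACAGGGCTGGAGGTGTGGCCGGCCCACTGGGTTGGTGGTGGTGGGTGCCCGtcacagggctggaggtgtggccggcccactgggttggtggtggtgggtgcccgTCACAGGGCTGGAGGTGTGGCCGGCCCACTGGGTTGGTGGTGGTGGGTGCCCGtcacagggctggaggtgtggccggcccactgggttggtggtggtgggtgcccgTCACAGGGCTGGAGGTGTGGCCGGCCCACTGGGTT

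The SP2 promoter window (250 bases before to 50 after the gene start) held 8 matches to the CCAAT box on either strand, the first of them overlapping its neighbour on the opposite strand. Of 35116 RefSeq promoter windows of the same length, 34.6% held any and 0.0057% held at least 8; this motif was added after the sequence had been read. It also held 2 GC boxes, a number reached by 26.7% of promoters. The SPATC1L window was taken up by a tandem repeat of a 53-base unit, bases 4 to 251 of the window and 4.68 copies in length. A run of matches at least as long, over periods of 10 to 99 bases, was found in 10 of the 35116 promoters (0.0285%), and how reads that match more than 1 copy of the unit were placed is not given in the sources used here. The core of the CTCF motif, searched by its most constant bases, occurs in 10.6% of promoters and the AP-1 letters TGANTCA in 7.71%, on both strands, and neither was present in the windows of SP2, SPATC1L or DSTYK. The GC content of the 3 windows was 58.0%, 68.3% and 56.0%. No sequence is shown for the DSTYK region with the fall, which lies inside the gene away from its promoter.

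At SP2 the choosing region was chr17:47895745-47896428, which covers the gene start and overlaps the neighbouring non-coding gene SP2-DT. CTCF there stood at 76.7 and 132 CPM in the 2 libraries at 0 h, 19.2 and 14.9 CPM at 6 h and 9.35 and 14.0 CPM at 72 h. Both 0 h libraries were above all 4 treated libraries, and most of the difference was already there at 6 h. The log2 fold change was -2.60 (SE 0.32) at 6 h and -3.12 (SE 0.32) at 72 h. It had the lowest 72 h value among 1397 CTCF regions listed here. They were called lower, had both 72 h libraries below both 0 h libraries, and had at least the median mean CPM. The list was built on this same contrast, so the rank restates the value that chose the gene. A CTCF peak was called in both libraries at 0 h and at 6 h and in 1 of 2 at 72 h. In the authors' peak lists the 0 h summits lay at positions -182 and -201 from the SP2 start, bases 69 and 50 of the promoter window, among the CCAAT boxes.

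Jun fell at the same place, and its counts did not enter the choice of SP2. Of all 8892 tested Jun regions over a RefSeq promoter window, 5980 were called lower at 72 h and 620 higher. The Jun region chr17:47895550-47896407 held 79.9 and 68.8 CPM at 0 h, 17.9 and 23.4 CPM at 6 h and 13.0 and 12.2 CPM at 72 h. No treated library reached the lower of the 0 h libraries. The fitted log2 change was -1.84 (SE 0.20), BH-adjusted p = 1.65e-06, at 6 h and -2.56 (SE 0.19), BH-adjusted p = 7.32e-09, at 72 h (edgeR quasi-likelihood test; BH stands for Benjamini-Hochberg, here and below over all tested regions of the antibody's table). Between 6 and 72 h it fell further, by 0.72 on the log2 scale, adjusted p = 0.0135. A Jun peak was still called in all 6 libraries. With offsets that follow signal strength (loess) the 72 h value was -1.90, with the same call.

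H3K27ac at the start of SP2 changed little in comparison, and the sign of its change depended on the scaling. The region chr17:47894574-47897337 held 116 and 109 CPM at 0 h, 72.0 and 85.5 CPM at 6 h and 76.6 and 81.1 CPM at 72 h, and all 4 treated libraries lay below both 0 h libraries. The log2 fold change was -0.51 (SE 0.11) at 6 h, BH-adjusted p = 0.000274, and -0.51 (SE 0.11) at 72 h, BH-adjusted p = 0.000121, but 0.073 and 0.20 with loess offsets. The 6 h call was also lost with total-count scaling, at -0.18.

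Rad21 at the start of SP2 did not pass the test. The region chr17:47895628-47896349 held 27.1 and 21.1 CPM at 0 h and 20.4 and 19.7 CPM at 72 h, with a peak in all 4 libraries. The 72 h libraries both lay below the 0 h ones, by a margin smaller than the gap between the 0 h libraries. On the log2 scale the change was -0.27 (SE 0.24), 95% interval -0.77 to 0.23, adjusted p = 0.428, and 0.13 without the first 0 h library. A fall in Rad21 beyond 0.77 on the log2 scale lies outside that interval. Among the 1306 Rad21 regions that overlap a CTCF region called lower at 72 h, the median log2 fold change was -0.62, and 73.4% were at or below the value at SP2. Among the 617 Jun regions that overlap such a CTCF region the median was -1.33, and 6.16% were at or below the SP2 value. Both sets take in CTCF falls of any size, whereas SP2 was chosen for an extreme one, so the shares are descriptions only.

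**Figure D1:**
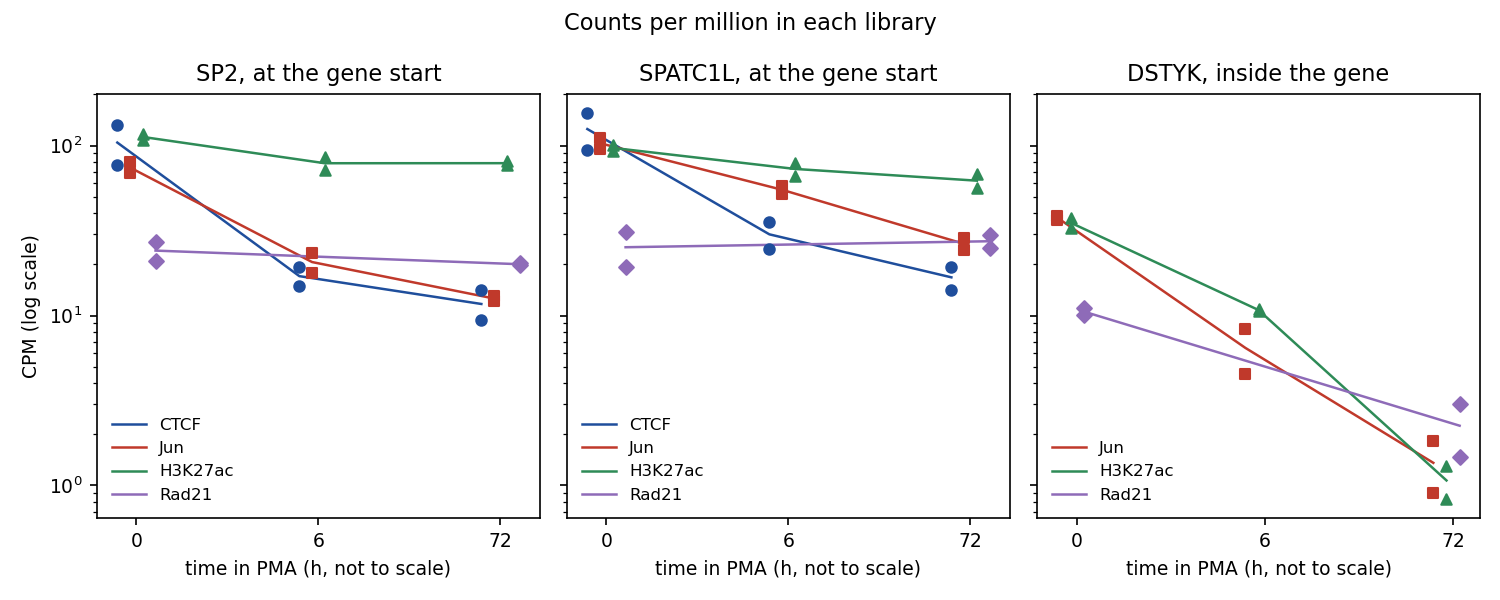
CPM (log scale) in every library at the region with the fall, for each antibody against time in PMA; points are libraries and lines join group means. At the starts of SP2 and SPATC1L the CTCF and Jun libraries are lower at 72 h while the 72 h Rad21 libraries stay between 19.7 and 29.9 CPM, and at DSTYK all 3 antibodies are lower at 72 h; the small H3K27ac decrease at the SP2 and SPATC1L starts changes sign with loess offsets.

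The rest of the SP2 window was divided by the gene start. All 11 H3K27ac regions upstream of it were higher at 72 h, 7 of them over SP6, a gene of the same family, and 4 between SP6 and SP2, with log2 fold changes from 0.54 to 4.35 and a median of 2.84. Of the 7 regions downstream 6 were lower, with 1 higher, in CDK5RAP3. Over all H3K27ac regions 43.4% were called higher and 38.1% lower. The member counts were the same with total-count scaling, with or without mitochondrial regions, with loess offsets and by DESeq2; the split by side was made after the values had been seen. The highest rise was at chr17:47885588-47886099, where H3K27ac went from 0.454 and 0.579 CPM at 0 h to 2.1 and 2.16 CPM at 6 h and 10.7 and 10.7 CPM at 72 h. The groups did not overlap, and the log2 fold change at 72 h was 4.35 (SE 0.27), BH-adjusted p = 1.24e-13. The lowest value was at chr17:47934873-47936665, in SP2-AS1, an antisense gene, from 48.2 and 44.9 CPM at 0 h to 10.6 and 9.45 CPM at 6 h and 10.6 and 9.18 CPM at 72 h. The fall was there in full at 6 h, with log2 fold changes of -2.22 (SE 0.13) and -2.23 (SE 0.12) and adjusted p = 1.4e-13 and 7.92e-15.

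Around SP2 Jun was called in both directions. Upstream of the start 4 of 10 Jun regions were higher at 72 h and 1 lower, and downstream 2 of 9 were higher and 4 lower, where 53.7% of all Jun regions were called in either direction, 28% higher and 25.7% lower. Total-count scaling gave 5 higher and 0 lower upstream and 4 and 4 downstream, and DESeq2 gave 2 and 1 upstream and 1 and 4 downstream. The highest Jun rise was at chr17:47967652-47968368, over the start of CDK5RAP3, from 3.77 and 2.57 CPM at 0 h to 11.5 and 13.4 CPM at 6 h and 15.6 and 11.2 CPM at 72 h, and its log2 fold change was 2.08 (SE 0.28), BH-adjusted p = 2.74e-06. The remaining CTCF regions of the window had 72 h values from -1.12 to 1.72. Rad21 was higher in 3 of 7 regions upstream and 1 of 6 downstream and lower in none, where 15.4% of all Rad21 regions were called higher and 7.91% lower; by DESeq2 it was higher in 2 and 0. Its smallest called rise was over SP6, from 6.40 and 3.27 CPM to 16.0 and 12.8 CPM, log2 fold change 1.54 (SE 0.32), BH-adjusted p = 0.00159, and 2.34 without the first 0 h library. The largest upstream, outside gene spans, was 2.36. The Rad21 rise over CDK5RAP3 rested on 2 and 4 counts at 0 h (0.305 and 0.819 CPM) against 34 and 12 at 72 h (4.91 and 2.19 CPM). No Rad21 library had a peak there. On the log2 scale this rise of 2.71 (SE 0.75), BH-adjusted p = 0.0114, no longer passed without the first 0 h library or the first 72 h library, at 2.32 and 2.03, or by DESeq2, adjusted p = 0.0706.

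At SPATC1L the choosing region was chr21:46184397-46184865, which also covers the gene start. CTCF there stood at 94.4 and 156 CPM in the 0 h libraries, 35.6 and 24.6 CPM at 6 h and 19.4 and 14.2 CPM at 72 h. The 3 time points did not overlap, and each later one was lower. The log2 fold change was -2.05 (SE 0.32) at 6 h and -2.91 (SE 0.32) at 72 h. In the list of 1397 CTCF regions the latter was the second lowest after SP2, and the next region, on chromosome 17, had -2.87. A CTCF peak was called in all 6 libraries. The 0 h summits lay at positions -188 and -147 from the start, inside the tandem repeat.

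Jun fell over the same bases, in steps. As given for SP2, most tested Jun regions over a promoter window were also called lower at 72 h. The region chr21:46184409-46185443 held 95.4 and 111 CPM at 0 h, 52.0 and 58.0 CPM at 6 h and 28.6 and 24.2 CPM at 72 h, with a peak in all 6 libraries. The time points did not overlap. The fitted log2 change was -0.91 (SE 0.19), BH-adjusted p = 0.00141, at 6 h and -1.97 (SE 0.19), BH-adjusted p = 7.89e-08, at 72 h, and -1.06 (SE 0.19), BH-adjusted p = 0.000461, from 6 to 72 h. Loess offsets gave -1.02 at 72 h with the same call.

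H3K27ac and Rad21 at the start of SPATC1L moved less. H3K27ac in chr21:46183975-46186051 went from 101 and 92.7 CPM at 0 h to 66.5 and 79.4 CPM at 6 h and 56.2 and 68.2 CPM at 72 h. Its log2 fold change was -0.41 (SE 0.12), BH-adjusted p = 0.00393, and -0.64 (SE 0.11), BH-adjusted p = 1.66e-05, but 0.14 and 0.034 with loess offsets; the 6 h call was also lost without the first 0 h library, at -0.34, and with total-count scaling, at -0.07. Rad21 in chr21:46184422-46184866 held 19.4 and 31.1 CPM at 0 h and 29.9 and 24.9 CPM at 72 h, with a peak in all 4 libraries. The groups overlapped. The log2 fold change was 0.13 (SE 0.26), 95% interval -0.40 to 0.66, adjusted p = 0.735, and 92.5% of the Rad21 regions that overlap a CTCF region called lower had a value at or below it. This set was not matched on the size of the CTCF fall.

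**Figure D2:**
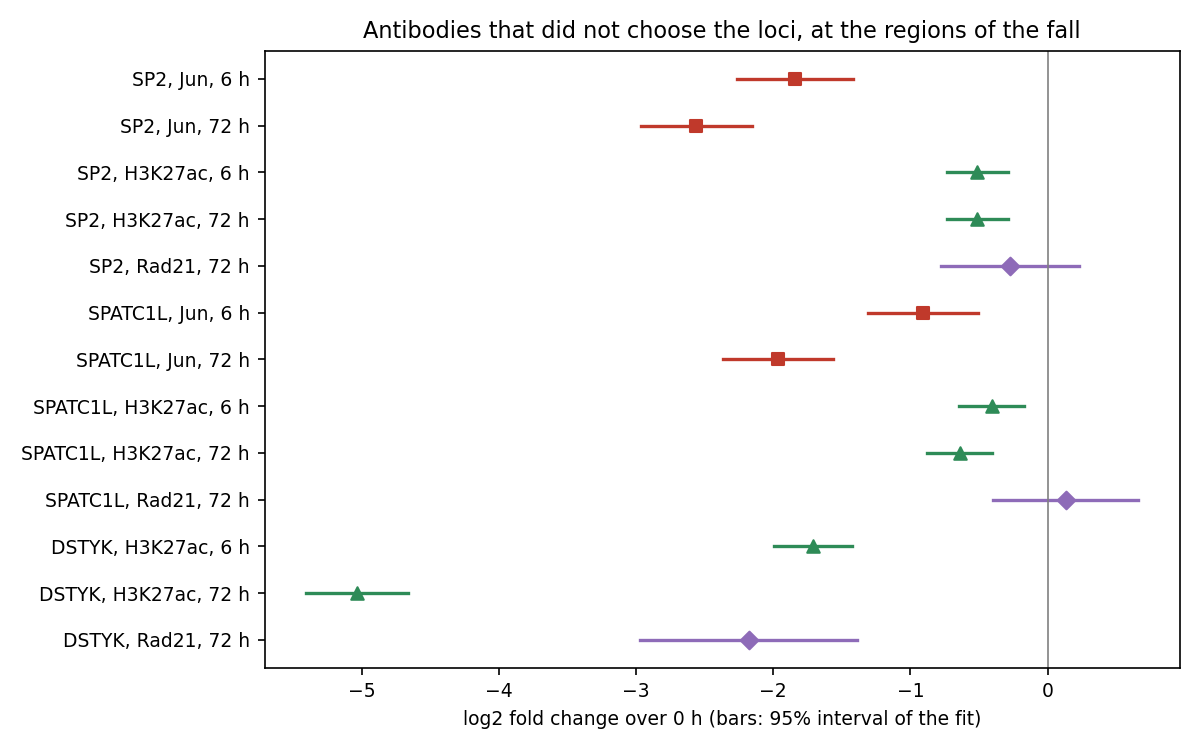
Log2 fold change over 0 h, with the 95% interval of the edgeR fit, for the antibodies that did not choose each locus, at the region with the fall. Jun at SP2 and SPATC1L and all 3 DSTYK values lie clear of 0, both Rad21 intervals at SP2 and SPATC1L include 0, and the H3K27ac values at SP2 and SPATC1L turn positive with loess offsets.

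Around SPATC1L the 10 H3K27ac regions split into 3 higher, 6 lower and 1 not passing the test at 72 h, where 81.5% of all H3K27ac regions were called, 43.4% higher and 38.1% lower. The steepest rise was over COL6A2, which encodes a chain of collagen VI. H3K27ac in chr21:46121967-46123072 went from 0.114 and 0.316 CPM at 0 h, from 2 and 6 counts, to 7.20 and 9.84 CPM at 6 h and 10.3 and 11.6 CPM at 72 h. All treated libraries were far above the 0 h ones, with log2 fold changes of 5.26 (SE 0.35) and 5.61 (SE 0.33) and adjusted p = 2.06e-12 and 4.28e-14; without the second 0 h library they were 6.17 and 6.52. Jun rose over the same gene at chr21:46123658-46124116, from 0.290 and 0.714 CPM at 0 h (2 and 5 counts) to 10.8 and 11.6 CPM at 6 h. It stood at 4.12 and 3.17 CPM at 72 h, with a peak in both 6 h libraries and in 1 of 2 at 72 h. Its log2 fold change was 4.45 (SE 0.45) at 6 h, BH-adjusted p = 6.34e-07, and 2.82 (SE 0.48) at 72 h, BH-adjusted p = 4.55e-05 (5.23 and 3.60 without the second 0 h library). From 6 to 72 h it fell, -1.63 (SE 0.28), BH-adjusted p = 0.000243. Rad21 over COL6A2, in chr21:46122187-46122834, went from 0.610 and 1.64 CPM to 7.22 and 8.23 CPM, log2 fold change 2.83 (SE 0.49), BH-adjusted p = 0.000255, and 3.64 without the second 0 h library. Its 0 h values rested on 4 and 8 counts, and a Rad21 peak was called there in 1 of 2 libraries at 72 h and in none at 0 h.

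The decreases lay on SPATC1L itself and on FTCD, LSS and MCM3AP-AS1. Inside SPATC1L, 4.01 kb from its start, H3K27ac in chr21:46180283-46180607 went from 8.75 and 8.69 CPM at 0 h to 3.43 and 2.41 CPM at 6 h and 0.832 and 0.655 CPM at 72 h. It fell at both steps, with log2 fold changes of -1.60 (SE 0.24) and -3.54 (SE 0.27) and adjusted p = 2.43e-06 and 6.1e-12. No H3K27ac peak was called there in any library, also not before PMA. Both H3K27ac regions of FTCD, an enzyme of histidine and folate metabolism, were lower, at -2.15 and -3.11. LSS encodes lanosterol synthase of the cholesterol pathway, and of its 4 H3K27ac regions 2 were higher and 1 lower, between -2.80 and 1.65. Jun over LSS was lower in 3 of 7 regions and higher in none, where 25.7% of all Jun regions were lower and 28% higher; total-count scaling gave 1 higher and 3 lower, and loess offsets 1 and 2. The lowest, chr21:46228634-46229034, held 10.5 and 10.3 CPM at 0 h, 4.75 and 4.54 CPM at 6 h and 2.37 and 2.58 CPM at 72 h, and the change on the log2 scale came to -2.06 (SE 0.26), BH-adjusted p = 1.34e-06. Inside LSS, at -16.87 kb from the SPATC1L start, Rad21 in chr21:46201023-46201642 rose from 6.40 and 4.09 CPM to 22.1 and 23.0 CPM, log2 fold change 2.07 (SE 0.29), BH-adjusted p = 2.87e-05, and 2.66 without the first 0 h library. The CTCF region over the same bases had a 72 h value of 1.67.

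At DSTYK the choosing region was chr1:205157044-205158388, 54.0 kb into the gene from its start. Jun there stood at 38.8 and 36.5 CPM in the 0 h libraries, 8.36 and 4.54 CPM at 6 h and 0.900 and 1.82 CPM at 72 h. The time points did not overlap, and the fall went on after 6 h. On the log2 scale the change was -2.57 (SE 0.28) at 6 h and -4.76 (SE 0.28) at 72 h, the latter -5.45 without the second 72 h library. It was the second lowest of 25094 Jun regions listed by the same criteria as for CTCF, between -5.02 on chromosome 12 and -4.74 on chromosome X. This rank too restates the choice. Both 0 h libraries had a Jun peak and none of the 4 treated libraries had one.

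H3K27ac fell over the same bases. The region chr1:205156812-205158977 held 32.8 and 37.6 CPM at 0 h, 10.6 and 10.9 CPM at 6 h and 1.30 and 0.837 CPM at 72 h, and peaks were called in both libraries at 0 h, 1 at 6 h and none at 72 h. The time points did not overlap. The log2 fold change was -1.71 (SE 0.14), BH-adjusted p = 9.04e-11, at 6 h and -5.03 (SE 0.18), BH-adjusted p = 2.3e-18, at 72 h. The 6 to 72 h step, -3.33 (SE 0.20), BH-adjusted p = 3.92e-13, had the larger estimate of the 2 steps. Among the 23504 H3K27ac regions that overlap a Jun region called lower at 72 h, the median was -0.84, and 0.37% were at or below the value at DSTYK. That set takes in Jun falls of any size, whereas DSTYK was chosen for an extreme one, so the share is a description only.

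Rad21 fell there too. The region chr1:205156960-205157527 held 10.1 and 11.1 CPM at 0 h and 3.03 and 1.46 CPM at 72 h, and its peak was called in both 0 h libraries and in neither at 72 h. The fitted log2 change was -2.18 (SE 0.38), BH-adjusted p = 0.000312, and -2.78 without the first 72 h library. The groups did not overlap, and among 24815 Rad21 regions that overlap a Jun region called lower, whose median was -0.08, 0.87% were at or below it. This set too was not matched on the size of the Jun fall. A second, weaker Rad21 region, chr1:205158023-205158222, went from 2.90 and 2.66 CPM to 0.866 and 1.46 CPM, log2 fold change -1.27 (SE 0.66), 95% interval -2.64 to 0.11, adjusted p = 0.165. No CTCF region of the table overlapped the Jun region. The nearest, chr1:205172788-205173204, held 3.03 and 2.14 CPM at 0 h, 5.45 and 2.01 CPM at 6 h and 9.35 and 5.01 CPM at 72 h, log2 fold change 1.41 (SE 0.57), BH-adjusted p = 0.119.

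Over the whole DSTYK gene more H3K27ac regions were lower at 72 h than at 6 h. Of its 12 H3K27ac regions 2 were higher and 3 lower at 6 h, and 1 was higher and 9 lower at 72 h. Their 72 h values ran from -5.03 to 0.48, with a median of -1.48. Of all H3K27ac regions 58.6% were called at 6 h, and 55.1% of these calls were rises. At 72 h 81.5% were called, 43.4% higher and 38.1% lower. Over the DSTYK promoter, chr1:205210189-205211670 held 30.8 and 33.8 CPM at 0 h, 22.9 and 25.5 CPM at 6 h and 11.9 and 13.0 CPM at 72 h, with peaks in all 6 libraries. The decrease at 6 h was small, -0.41 (SE 0.12), BH-adjusted p = 0.00393, and it no longer passed without the second 0 h library, at -0.34, or with total-count scaling, at -0.08. At 72 h it was -1.37 (SE 0.12), BH-adjusted p = 8.74e-11. The region just before the start, chr1:205211839-205212462, was at -1.15 (SE 0.17) at 72 h, BH-adjusted p = 1.06e-06, from 11.1 and 9.69 CPM to 4.52 and 4.84 CPM. Jun at the promoter, chr1:205211417-205211714, held 4.65 and 5.99 CPM, 2.03 and 3.63 CPM and 2.46 and 2.24 CPM at the 3 times. Rad21 at the promoter, chr1:205211372-205211751, went from 5.03 and 3.89 CPM to 5.49 and 5.67 CPM, log2 fold change 0.31 (SE 0.37), BH-adjusted p = 0.57, and CTCF there, chr1:205211555-205211785, was at 1.22 (SE 0.68), BH-adjusted p = 0.243, on 4 and 8 counts at 0 h.

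Inside DSTYK the strongest Jun region on average was chr1:205175426-205176199, with 24.4 and 25.3 CPM at 0 h, 25.3 and 32.3 CPM at 6 h and 17.5 and 17.5 CPM at 72 h. It kept a Jun peak in all 6 libraries, and its 72 h value of -0.50 (SE 0.19) turned to 0.059 with total-count scaling and 0.10 with loess offsets. Of the 24 Jun regions in the DSTYK window 5 had a 72 h value above 0 and 19 below it, with a median of -0.30. The median of all Jun regions was 0.17, and 0.73 with total-count scaling. The share of all Jun regions below 0, and the window's split with that scaling, are not given here. Whether the window differs from the rest was not tested. Apart from the choosing region, the Jun regions of the gene had 72 h values from -1.18 to 0.44. A region in TMCC2, which encodes a transmembrane coiled-coil protein, was singled out after its value had been seen: chr1:205230348-205230581 held 4.21 and 4.57 CPM at 0 h, 1.13 and 0.363 CPM at 6 h and 0.521 and 0.211 CPM at 72 h, log2 fold change -3.57 (SE 0.55) at 72 h, without a peak in any Jun library.

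In the neighbouring genes H3K27ac moved in both directions. Of 6 regions in TMCC2 3 were higher at 72 h and none lower, where 43.4% of all H3K27ac regions were higher and 38.1% lower, and loess offsets gave 3 higher and 2 lower. The steepest rise was chr1:205258699-205259128, from 0.625 and 0.527 CPM at 0 h to 3.78 and 2.26 CPM at 6 h and 3.26 and 2.40 CPM at 72 h, log2 fold change 2.29 (SE 0.39), BH-adjusted p = 8.94e-06. Rad21 in TMCC2 rose at chr1:205248842-205249380, from 2.13 and 2.66 CPM to 6.50 and 5.49 CPM, log2 fold change 1.33 (SE 0.42), BH-adjusted p = 0.0253, a call that was lost without the first 0 h library (1.38) and without the first or the second 72 h library (1.25 and 1.52), and by DESeq2 (1.33, adjusted p = 0.174). No peak was called in any Rad21 library at this TMCC2 region. RBBP5 encodes a core subunit of histone H3 lysine methyltransferase complexes. H3K27ac over its start, chr1:205120976-205123178, held 85.4 and 80.1 CPM at 0 h, 52.9 and 56.4 CPM at 6 h and 37.2 and 35.8 CPM at 72 h, log2 fold change -1.18 (SE 0.10), BH-adjusted p = 9.63e-11 (-0.57 with loess offsets). Rad21 there, chr1:205121868-205122768, the strongest Rad21 region of the window, went from 26.1 and 26.0 CPM to 17.3 and 17.7 CPM, log2 fold change -0.57 (SE 0.24), BH-adjusted p = 0.0848.

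CTCF, which did not choose DSTYK, was called changed in none of the 9 tested regions of its window at 6 h, at 72 h or between them, by edgeR with an adjusted p under 0.05; an unadjusted p under 0.05 was reached by 1, 4 and 0 of them. Over all CTCF regions 2.65%, 6.79% and 2.18% were called in these comparisons. The strongest CTCF region of the window, chr1:205255835-205256603 in TMCC2, held 39.4 and 46.1 CPM at 0 h, 26.9 and 25.8 CPM at 6 h and 25.3 and 27.9 CPM at 72 h. Its treated libraries all lay below the 0 h libraries, and the change on the log2 scale came to -0.67 (SE 0.24), 95% interval -1.19 to -0.16, adjusted p = 0.0899. The 72 h count of 0 became 2 without either of the 6 h CTCF libraries and by DESeq2 was again 0.

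**Figure D3:**
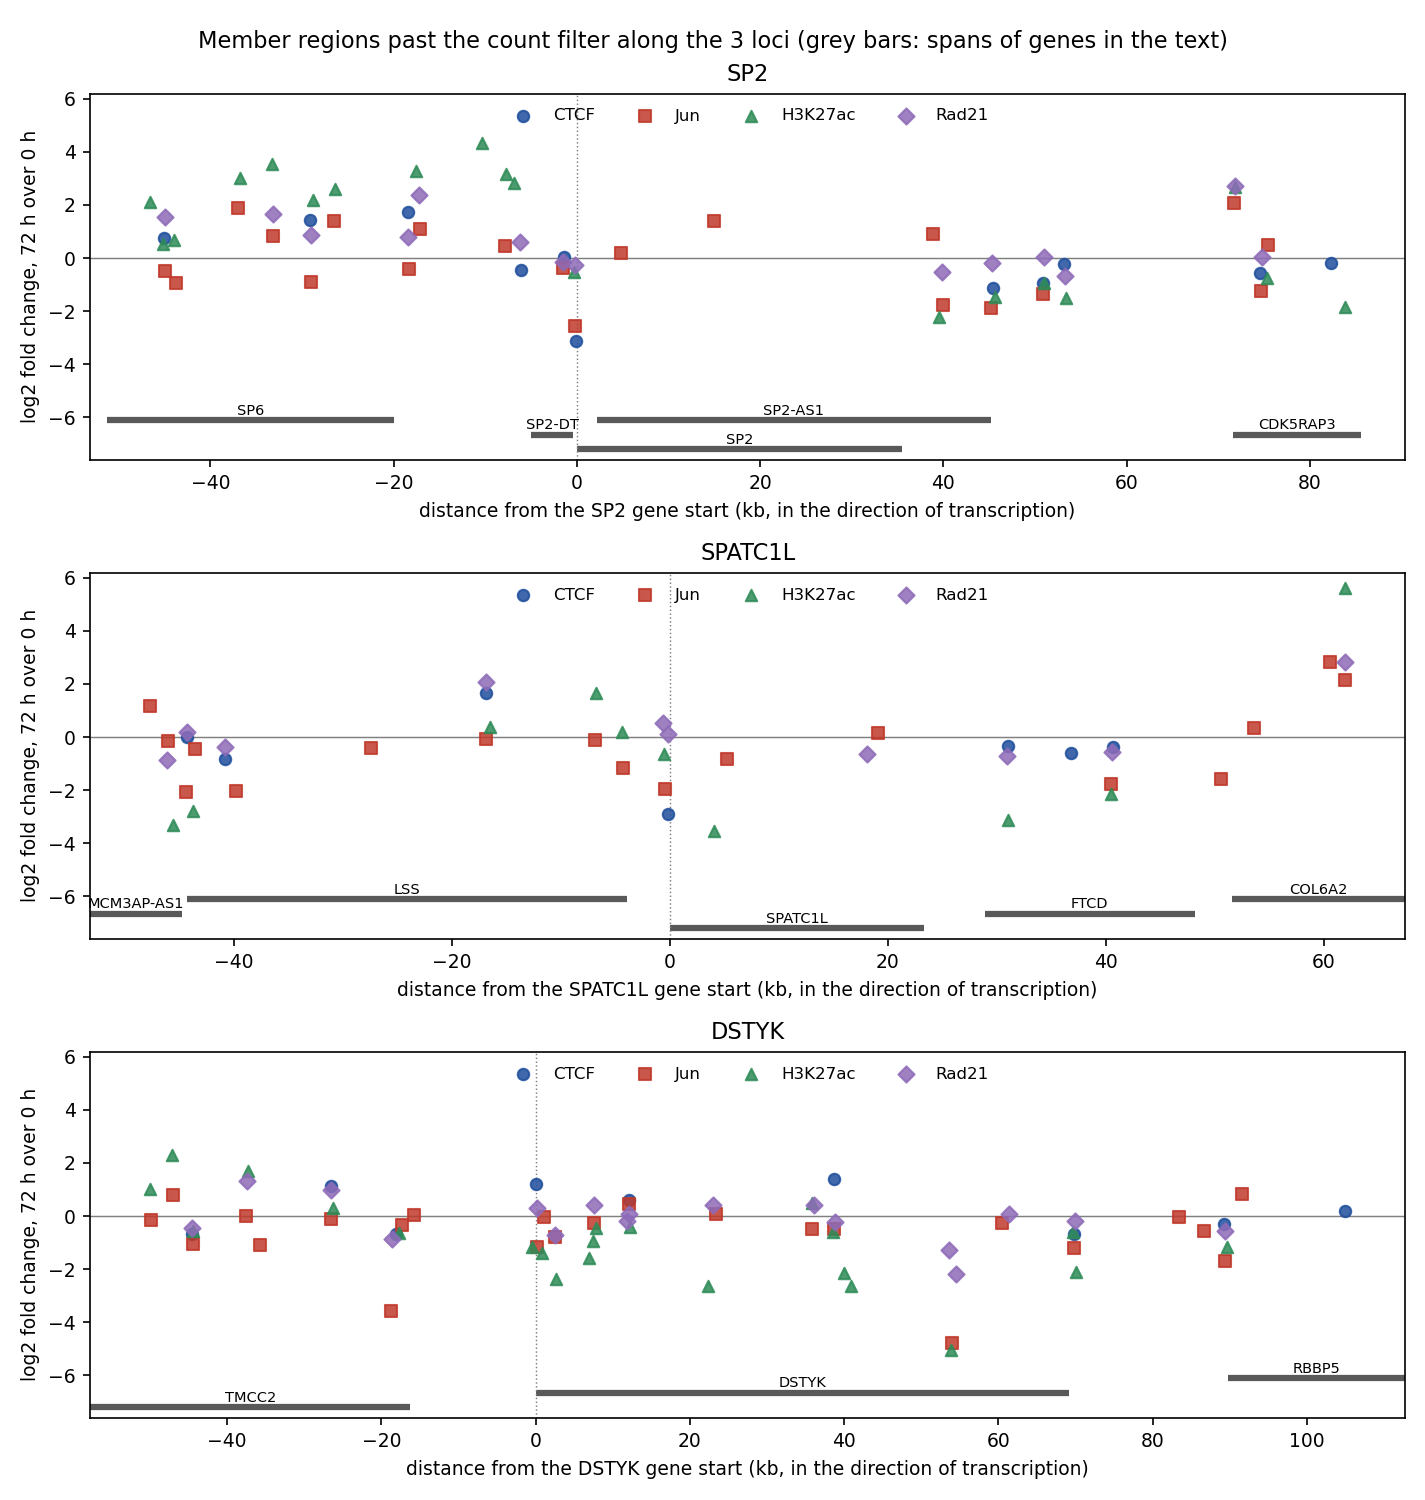
Log2 fold change from 0 to 72 h of every member region that passed the count filter, against its distance from the gene start in kb along the direction of transcription, for the 4 antibodies; grey bars are the spans of the genes described in the text. Upstream of SP2 the H3K27ac regions all lie above 0, the lowest CTCF values of SP2 and SPATC1L sit at the gene start, and at DSTYK the lowest Jun, H3K27ac and Rad21 values sit together 54.0 kb into the gene; H3K27ac at the SP2 and SPATC1L starts changes sign with loess offsets.

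Counted over the 3 loci, changed regions were about as frequent among the members as among all H3K27ac regions. For this mark 33 of 51 regions were called at 6 h (17 higher, 16 lower), where 58.6% of all tested regions were. At 72 h 44 were called (19 higher, 25 lower) against 81.5% of all, and between 6 and 72 h 37 (14 higher, 23 lower) against 63.8%. With total-count scaling the 6 h split was 24 higher and 9 lower. The median 72 h log2 fold change was 2.09 at SP2, -1.40 at SPATC1L and -0.79 at DSTYK, where that of all H3K27ac regions was 0.18. Total-count scaling moved the median of all H3K27ac regions to 0.53 at 6 h and 0.42 at 72 h. The medians of the 3 loci with that scaling are not given here.

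For Jun at SP2 and SPATC1L 16 of 37 regions were called at 6 h (7 higher, 9 lower), where 25.3% of all Jun regions were, and 20 at 72 h (8 higher, 12 lower), where 53.7% were. Total-count scaling turned the 72 h split to 13 higher and 11 lower, and DESeq2 gave 5 higher and 12 lower. From 6 to 72 h 9 regions were lower and none higher, where 26.2% of all Jun regions were called, 12.7% higher and 13.4% lower. Without the first 72 h library 3 were called, without the second 1, and with total-count scaling 1 was higher and 3 lower. The median 72 h log2 fold change of these 37 regions was -0.38, and that of all Jun regions 0.17. Total-count scaling moved the median of all Jun regions to 0.73. The median of the 37 regions with that scaling is not given here, so -0.38 is to be set beside 0.17 only.

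For Rad21 9 of 41 regions were called at 72 h (8 higher, 1 lower), where 23.3% of all tested regions were; the region that fell was the one at the DSTYK site. Total-count scaling gave 7 higher and 3 lower. The count was 5 without the first 0 h library, 5 without the first 72 h library and 5 by DESeq2. The median was 0.05 over the member regions and -0.05 over all Rad21 regions.

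**Figure D4:**
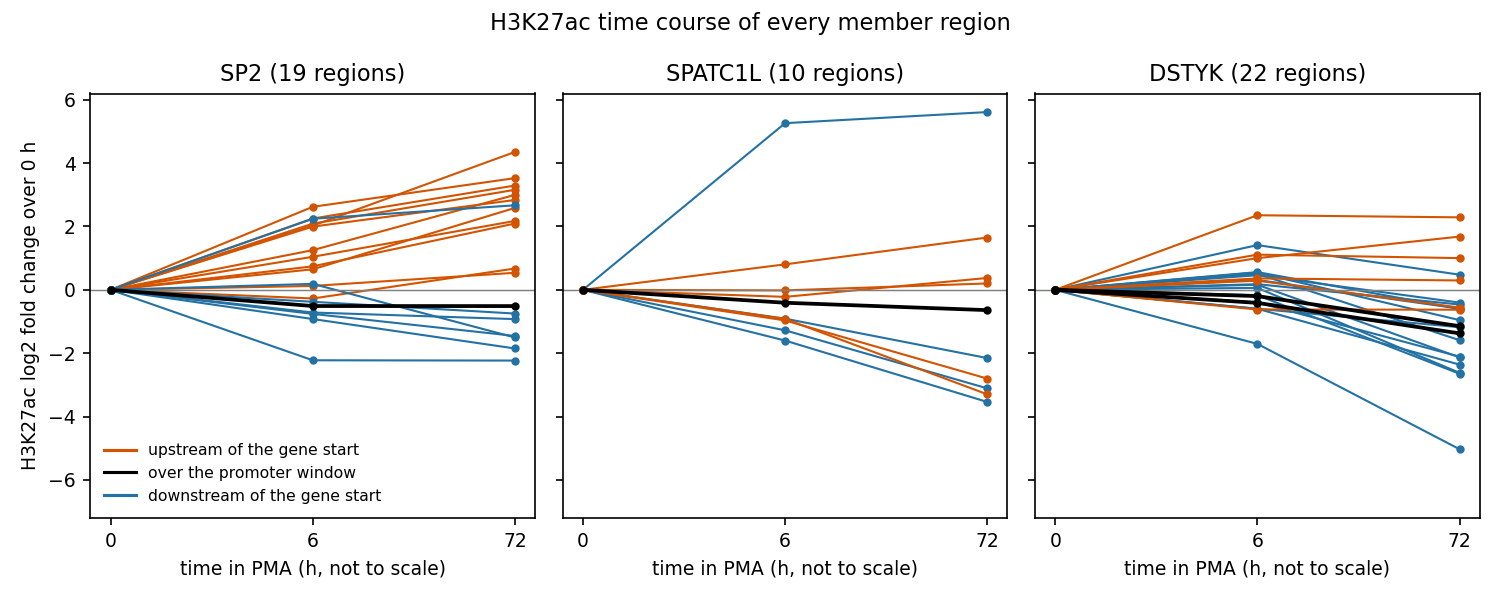
H3K27ac log2 fold change over 0 h at 6 and 72 h for all 51 member regions, coloured by position relative to the gene start. Upstream regions of SP2 climb at both steps in most cases, and 1 COL6A2 region of the SPATC1L window reaches 5.61. At DSTYK 5 regions were called higher and 4 lower at 6 h, where 58.6% of all H3K27ac regions were called. At 72 h 4 were higher and 12 lower, where 81.5% of all were called, 43.4% higher and 38.1% lower. The black SP2 and SPATC1L promoter lines change sign with loess offsets.

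Overlap between antibodies was counted from 1 bp. Of the 29 CTCF member regions 24 (82.8%) overlapped a Rad21 region, against 60.0% of all CTCF regions, and 22 (75.9%) an H3K27ac region, against 36.5%. Regions over a RefSeq promoter window made up 13.0% of all CTCF regions called lower at 72 h and 10.3% of all tested. For Jun these shares were 17.5% and 6.69%, and for H3K27ac 20.4% and 11.2%. At the edge of the windows, the last H3K27ac regions inside the 50 kb limit on the SP6 side and on the COL6A2 side had 72 h values of 2.09 and 5.61, and the first outside it 2.42 and 4.64. On the TMCC2 side of DSTYK the last inside had 1.00 and the first outside -0.23. These 2 values were -1.85 and 0.05 on the CDK5RAP3 side, -3.30 and -0.92 on the MCM3AP-AS1 side and -1.18 and 2.63 on the RBBP5 side. The first outside lay 68.4 kb beyond the SPATC1L span on the COL6A2 side and 169.6 kb beyond the DSTYK span on the RBBP5 side.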

How the data were processed

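Antibody profiling libraries of K562 cells were grouped by antibody and time from the sample titles. The deposited region tables hold whole read counts per region and library, the authors' log2 fold changes and the authors' adjusted p-values. The authors' peak lists hold a fold enrichment (a linear ratio) and a −log10 q-value per peak, made per library. Per the submitters' processing notes, which give no roles, Trim Galore 0.4.3, BWA 0.7.17, SAMtools 1.9, deepTools 3.0.1, MACS2 and bedtools 2.26 were used, with builds hg19 and hg38. The tables do not name their build; coordinates were read as GRCh38, on which RefSeq gene spans were placed, and exon structure was not analysed here. Some marker genes and a neighbouring gene are not reported here. How regions were merged, counted or filtered for multiple mapping is not given in the sources used here.

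Each table was fitted whole in R 4.3.3 with edgeR 4.0.16 (quasi-likelihood test, filterByExpr, TMM, time point as the only term, no replicate block), and p-values were adjusted by Benjamini-Hochberg over all tested regions, with calls at an adjusted p under 0.05. SEs and 95% intervals come from that fit. The members and lists were chosen with earlier results of these data known. Regions named singly were the region with the fall, those overlapping it (or the nearest) and those over the gene's promoter window. Also named were the strongest per antibody and locus, and the called regions with the largest and the smallest log2 fold change. Where all calls were rises, the smallest is the weakest rise. A region outside this rule is marked as such in the text. Replicate numbers in the titles were tested for pairing, and the correlation of replicate differences between time points ran from -0.01 to 0.12, not above 0.1 for every pair of any antibody with 3 times.

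The fit was tested on simulated counts with 200 regions changed 4-fold at 72 h against 0 h. It recovered 162 for H3K27ac (94865 regions), 151 for Jun (132947), 128 for CTCF (58156) and 109 for Rad21 (83750). Of the regions called, 13.4%, 9.04%, 1.54% and 6.84% had not been changed. In this simulation calls at an adjusted p under 0.05 were thus looser than stated for all antibodies but CTCF, for Rad21 on 117 calls only. It was a single simulated set with few changed regions, whereas 81.5% of H3K27ac regions were called at 72 h. The share of false calls in the data may therefore differ and was not measured. Alternatives were total-count scaling with and without mitochondrial regions, loess offsets (limma 3.58.1 with edgeR), DESeq2 1.42.0, no count filter, a mean count of at least 50, a replicate block, only the compared time points, and each library left out. Peaks were also counted at a −log10 q of at least 10 and at 50% overlap. The search for the CCAAT box and the tandem repeat, the marker gene span extended by 2 kb, and the grouping of regions by gene or side were chosen after seeing the data.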

Additional observations from a re-analysis of the deposited data

Results flagged for a closer look

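One H3K27ac region passed the test in opposite directions at the 2 times. The share of all H3K27ac regions that did so was not counted. H3K27ac in chr1:205172455-205173730, inside DSTYK and 38.61 kb from its start, held 23.5 and 28.4 CPM at 0 h, 39.3 and 37.3 CPM at 6 h and 18.5 and 15.8 CPM at 72 h, with a peak in all 6 libraries. Both 6 h libraries were above both 0 h libraries, and both 72 h libraries were below them. The log2 fold change was 0.56 (SE 0.12), BH-adjusted p = 0.000285, at 6 h and -0.60 (SE 0.12), BH-adjusted p = 8.64e-05, at 72 h by edgeR. The difference between the 72 h and 6 h effects, tested directly, was -1.16 (SE 0.12). With loess offsets the 72 h value was -0.17, adjusted p = 0.187, and no longer passed.

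In 3 Jun regions of the DSTYK window both 6 h libraries lay above both 0 h libraries and both 72 h libraries below them. The difference between the times was not tested there, since Jun chose this locus. The share of all Jun regions with this pattern was not counted. Over the bases of the H3K27ac region, Jun in chr1:205172683-205173383 held 20.2 and 20.7 CPM at 0 h, 31.0 and 33.4 CPM at 6 h and 14.8 and 14.8 CPM at 72 h, log2 fold changes of 0.66 and -0.47 and -1.13 from 6 to 72 h. Its 72 h value turned to 0.091 with total-count scaling and 0.095 with loess offsets. The others, chr1:205124882-205125239 and chr1:205175426-205176199, had -0.79 and -0.72 from 6 to 72 h. Their 72 h values were -0.57 and -0.50, against -0.017 and 0.059 with total-count scaling and -0.60 and 0.10 with loess offsets.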

How the results depend on the processing

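The counts of member regions called stayed within 1.5 times their reported value for H3K27ac in all 3 comparisons and for Jun at 6 h and 72 h against 0 h, under every alternative run. Leaving out 1 library gave 28 to 32, 41 to 44 and 31 to 37 for H3K27ac (6 against 0 h, 72 against 0 h and 72 against 6 h), and 12 to 18 and 17 to 22 for Jun. The Rad21 count of 9 became 5 by DESeq2, 3 when a mean of 50 counts was required, and 5 to 11 with 1 library left out. The Jun count from 6 to 72 h, 9, became 4 with total-count scaling and 1 to 12 with 1 library left out; of its calls, mitochondrial exclusion gave 1 higher and 5 lower and loess offsets 1 and 6. The CTCF count at DSTYK for 72 h, 0, became 1 with total-count scaling, 2 with only the compared time points and 0 to 2 with 1 library left out. The falls at the choosing regions ranged from -3.47 to -2.66 for CTCF at SP2, -3.23 to -2.47 for CTCF at SPATC1L and -5.45 to -4.36 for Jun at DSTYK with 1 library left out, and the last was -4.20 with total-count scaling. Signs turned with loess offsets for H3K27ac at the start of SP2 (0.073 and 0.20 at 6 and 72 h) and of SPATC1L (0.14 and 0.034), and for DSTYK Jun in chr1:205175426-205176199 with loess offsets (0.10) and total-count scaling (0.059); the cause was not tested. Over 56 values of single regions, 734 alternatives gave 17 calls lost and 8 gained with the sign kept. The sign turned in 15, the 6 above and 9 at values that had not passed the test or were described without one, among them Rad21 at the start of SP2 and of SPATC1L. With the replicate number as a block the counts were 33, 44 and 38 for H3K27ac, 16, 20 and 9 for Jun, 12 for Rad21 and 0 for CTCF, and the falls -3.12, -2.91 and -4.76; the shared numbers did not pair the libraries. Of 35 named regions, 19 had a peak in fewer libraries at a −log10 q of at least 10, and none at 50% overlap. Depth limits the weakest regions: fewer than 10 counts in a 0 h library were held by 11 of 42 Rad21, 10 of 61 Jun, 9 of 29 CTCF and 4 of 51 H3K27ac member regions.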

Other observations

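In the authors' deposited table the 72 h log2 fold changes at the choosing regions were -3.04 for CTCF at SP2, -2.81 for CTCF at SPATC1L and -4.81 for Jun at DSTYK. The same table gives these regions the class labels upEarly, upEarly and upLate, although the fold changes are negative, so the class labels were not used here. For Rad21 the labels do follow the sign of the authors' values (1898 up, 87 down). The DSTYK Rad21 region that fell here is static there, at -1.78. Of the Rad21 rises named here, those over COL6A2 and LSS are labelled up and those over SP6, CDK5RAP3 and TMCC2 static.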
